A study of Mus musculus with 66 samples.

Results

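The genes described here are 7 secreted products linked to epithelial defence in the gut: the Reg lectins Reg3b, Reg3g and Reg4, the resistin-like genes Retnlb and Retnla, the ribonuclease Ang4 and the phospholipase Pla2g2a. They were taken by symbol from the deposited table of transcript abundances, and the values of all transcripts with 1 gene identifier were summed. All 7 of 7 were found, among 30452 genes in all.

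The study followed wild-type C57BL/6 mice, bought at 6 weeks of age, through colitis caused by DSS (dextran sulfate sodium), which damages the lining of the colon. The injured mice were given 3% DSS for 6 days from day 0 and were dissected on experimental day 3, 6, 9, 14 or 20, with 3 mice on each day. The day 3 mice had therefore not completed the course. The control group was 4 uninjured mice of day 0, and no group carried an engineered allele. Each of the 19 mice gave 1 section of anus, 1 of rectum and 1 of mid-colon. The 9 mice of days 9, 14 and 20 also gave squamous neo-epithelium, a squamous tissue sampled only after injury. The muscle layer was removed before RNA was isolated, so each of the 66 samples is bulk mucosal tissue from 1 mouse and holds many cell types. Mice are numbered as in the labels: 1 to 4 at day 0, 5 to 7 at day 3, 8 to 10 at day 6, 11 to 13 at day 9, 14 to 16 at day 14 and 17 to 19 at day 20.

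Reg lectins are small secreted C-type lectin-like proteins. Reg3g and Reg3b bind bacteria at the mucosal surface and are well known targets of interleukin 22 and the transcription factor STAT3 in gut epithelium, while Reg4 marks secretory cells of the colon and has been linked to growth signalling and repair. Retnlb (RELM-beta) is made by goblet cells and is induced by type 2 cytokines and by microbes. Retnla (RELM-alpha, FIZZ1) is known from alternatively activated macrophages, adipose tissue and airway epithelium under type 2 cytokines. Ang4 is an angiogenin ribonuclease of Paneth and goblet cells, and Pla2g2a encodes a secreted phospholipase A2 that attacks bacterial membranes. The C57BL/6 strain is known to carry a disrupted Pla2g2a gene.

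The genes lie in separate places, apart from 2 clusters. In the GENCODE M21 annotation of GRCm38 (mm10), Reg3b (ENSMUSG00000071356) is at chr6:78370657-78373466 on the plus strand and Reg3g (ENSMUSG00000030017) at chr6:78466269-78468872 on the minus strand, with Reg1, Reg2, Reg3a and Reg3d between them. Reg4 (ENSMUSG00000027876) is elsewhere, at chr3:98222156-98236748. Retnlb (ENSMUSG00000022650, chr16:48816856-48818892) and Retnla (ENSMUSG00000061100, chr16:48842551-48844461) are neighbours on the plus strand, with Retnlg further along. Ang4 (ENSMUSG00000060615) is at chr14:51763878-51773590 on the minus strand, and Pla2g2a (ENSMUSG00000058908) at chr4:138831857-138835186 on the plus strand, where the annotation types it as a polymorphic pseudogene.

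The sequences just upstream are shown for 4 genes because Reg3b and Reg3g moved together in the colon while Reg4 and Retnla followed other courses. RefSeq promoter sequences on GRCm38.p6 were matched for 5 of the 7 (Reg3b, Reg3g, Reg4, Retnla and Ang4). Each line gives the 100 bases from 160 to 61 before the RefSeq start, on the gene's strand. These bases are free of GENCODE exons of the 7 genes and of Reg1, Reg2, Reg3a, Reg3d and Retnlg. Exons of other genes were not checked. For Reg3b and Retnla the RefSeq start lies inside the GENCODE gene, and so do the printed bases of Reg3b. Capitals mark a match to TTCNNNGAA, the palindrome known for STAT3, or to the STAT6 motif, which has the same ends with 1 more free base between them. Both motifs read the same on either strand.
Reg3b (chr6:78370725-78370824, plus strand): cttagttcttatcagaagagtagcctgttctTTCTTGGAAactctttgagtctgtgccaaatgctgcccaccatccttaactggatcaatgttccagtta
Reg3g (chr6:78468935-78469034, minus strand): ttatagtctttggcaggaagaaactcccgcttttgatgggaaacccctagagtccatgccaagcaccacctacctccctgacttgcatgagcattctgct
Reg4 (chr3:98221996-98222095, plus strand): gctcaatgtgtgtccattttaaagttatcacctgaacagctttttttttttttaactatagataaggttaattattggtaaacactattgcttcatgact
Retnla (chr16:48842449-48842548, plus strand): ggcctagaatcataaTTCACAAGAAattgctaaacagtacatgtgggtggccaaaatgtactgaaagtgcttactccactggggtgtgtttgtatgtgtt

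Over the full 300-base promoter window, Reg3b held TTCTTGGAA beginning 129 bases before the start, Retnla held TTCACAAGAA at 145 and Ang4 held TTCCCTGAA at 192. Neither motif was found in the windows of Reg3g and Reg4. Across all 32851 windows of that length, TTCNNNGAA was present in 8.3% and the STAT6 motif in 6.95%, so a single match is a description and not a site. In the 250 bases before the start, Reg3b and Reg3g shared 177 identical bases over 257 aligned columns (68.9%), against 47.1% to 51.7% for the other pairs of the 5 genes.

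Values are TPM, a relative transcript abundance adjusted for transcript length and scaled to the same total in every library, so levels can be set side by side between genes. TPM keeps no read depth, and a value of 0 is given as listed at 0. The number of genes at 1 TPM or more was 11268 to 13789 per library, and mitochondrial genes took 6.364% to 28.681% of the total. The summed level of 10 squamous markers was 10530 to 27680 TPM in anus, 15070 to 33740 TPM in neo-epithelium, 3.896 to 23.93 TPM in mid-colon and 6.859 to 1009 TPM in rectum. It separated anus and neo-epithelium from mid-colon and rectum, but not anus from neo-epithelium or all rectal from mid-colon samples. The part of squamous tissue in the rectal values was not tested. Differences are from limma on log2(TPM + 1), with Benjamini-Hochberg adjustment over all genes tested in that comparison, and a gene was called when its adjusted p was under 0.05. A fold on this scale understates the change of a low gene. In bulk tissue, fewer cells of a type and less RNA per cell cannot be told apart. The same day 0 mice serve as controls for every later day of a section. Each mouse was a separate animal, so the spread is between animals.

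**Figure D1:**
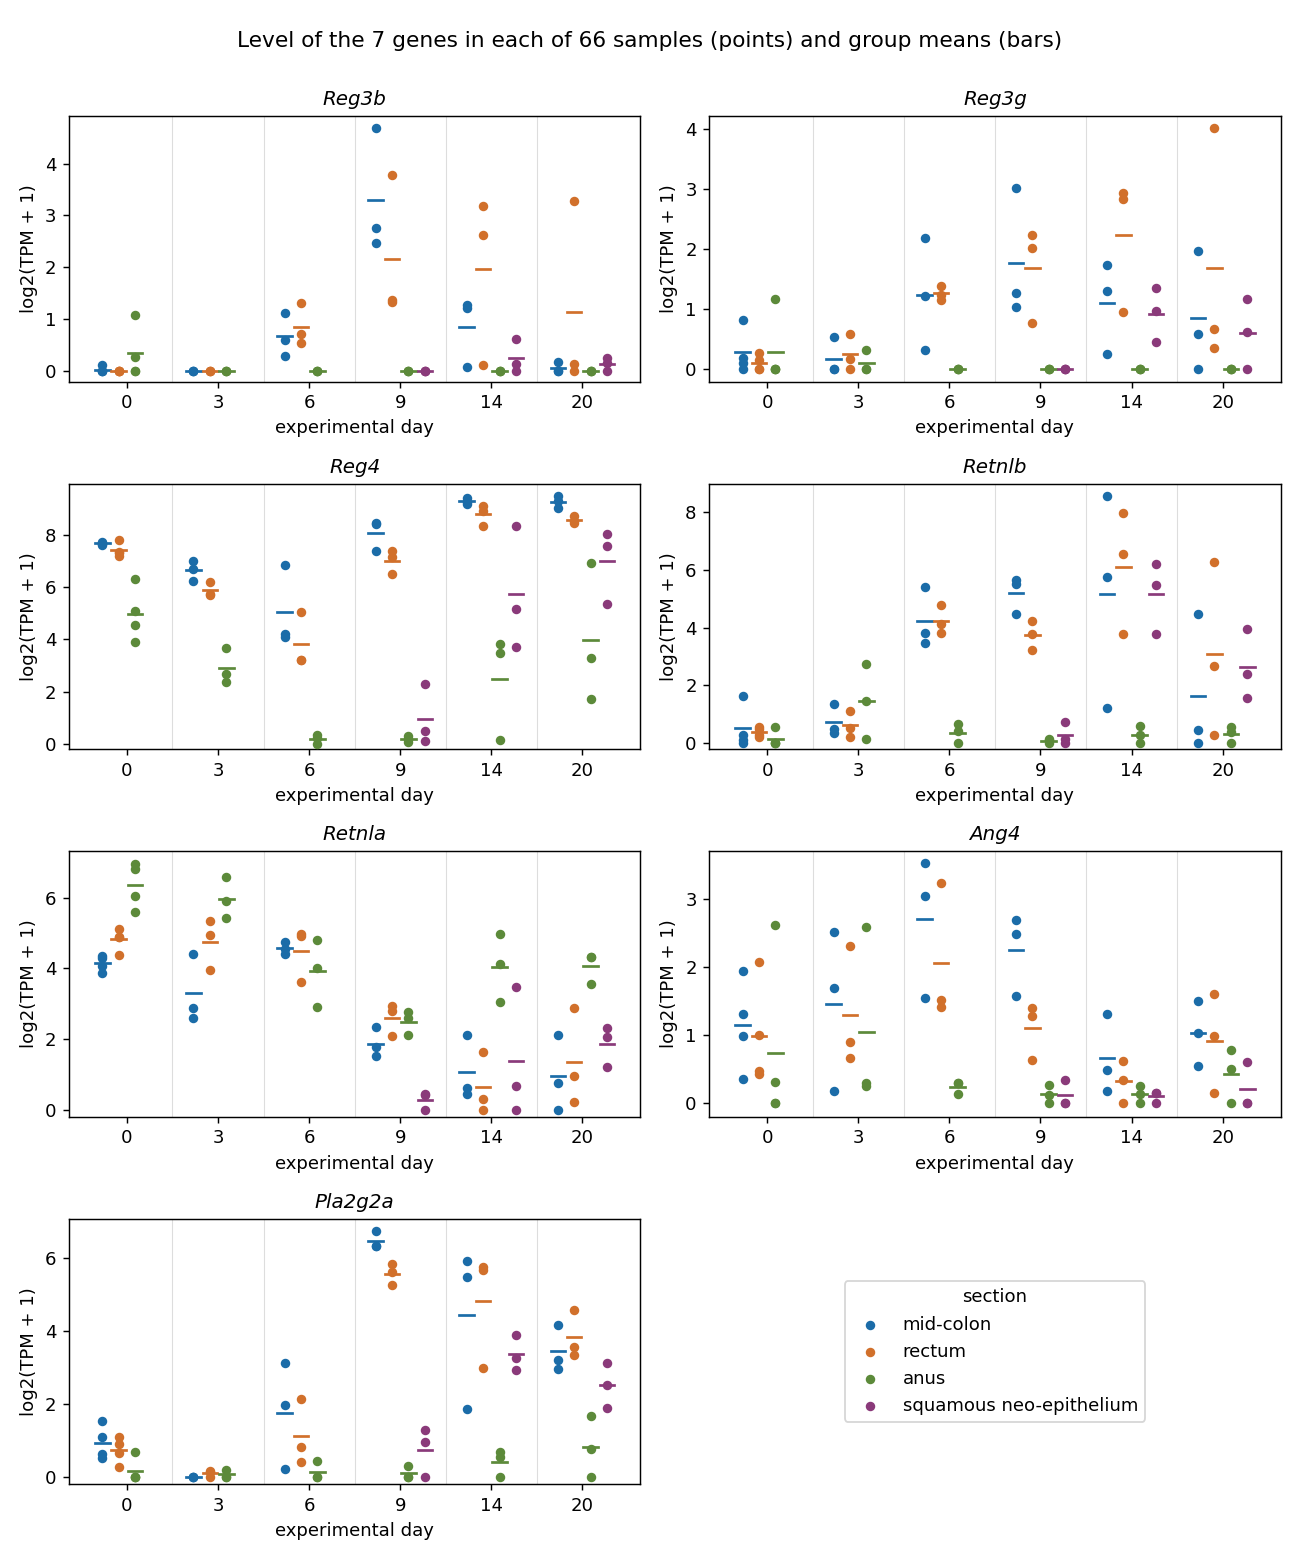
Level of each gene as log2(TPM + 1) in each of the 66 samples (1 point per sample, horizontal bars are group means) by experimental day, coloured by section. Reg4 dips at day 6 and ends above day 0 in mid-colon and rectum, Pla2g2a appears at day 9, and Retnlb spreads widely at day 14.

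Reg4 had the highest mean of the 7 genes over all mid-colon and over all rectal samples, although Retnla and Retnlb were above it in rectum at day 6. In the colon it fell during DSS and then passed its starting level. In mid-colon the uninjured mice had 205, 197, 202 and 210 TPM. At day 3 the levels were 75.4, 127 and 104 TPM, and at day 6 they were 116, 17.6 and 16.0 TPM. Every injured mouse of days 3 and 6 lay below every control. At day 9 the mid-colon held 342, 167 and 349 TPM, with 1 mouse below the controls and 2 above. At day 14 the levels were 579, 684 and 609 TPM and at day 20 they were 631, 719 and 523 TPM, each above all 4 controls.

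The rectum followed the same course. Reg4 stood at 157, 144, 162 and 221 TPM before injury. Day 3 gave 51.5, 53.2 and 72.5 TPM, and day 6 gave 32.6, 8.21 and 8.27 TPM, again without overlap with the controls. At day 9 it was 166, 89.1 and 140 TPM, with 1 mouse inside the range of the controls and 2 below it. Days 14 (549, 327 and 480 TPM) and 20 (350, 374 and 426 TPM) were above every control.

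The tests followed these values. In mid-colon the log2 difference from day 0 was -1.02 (SE 0.17, adjusted p = 0.0445) at day 3 and -2.62 (SE 0.56, adjusted p = 0.0161) at day 6. It was 1.61 (SE 0.12, adjusted p = 0.00093) at day 14 and 1.60 (SE 0.16, adjusted p = 0.00447) at day 20. In rectum the differences were -1.52 (SE 0.17, adjusted p = 0.00117), -3.58 (SE 0.42, adjusted p = 0.000569), 1.38 (SE 0.21, adjusted p = 0.0109) and 1.17 (SE 0.16, adjusted p = 0.0136) on the same days. At day 9 neither section passed, with 0.41 (adjusted p = 0.184) in mid-colon and -0.40 (adjusted p = 0.164) in rectum, although after TMM scaling, which is described with the counts of calls, rectal Reg4 was called lower (-0.73). The day 3 call in mid-colon was lost in each of the 7 fits that left out 1 mouse, the mid-colon day 6 call without mouse 9 or mouse 10, and the rectal day 20 call without mouse 1 or mouse 3. Without mouse 12 the mid-colon was called higher at day 9 (0.76).

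When Reg4 was lowest in the colon, at day 6, more goblet cell markers were called higher than lower. The summed level of 10 goblet and secretory markers, among them the mucin Muc2, the trefoil peptide gene Tff3 and Spink4, was 12420 to 14620 TPM in mid-colon at day 0 and 18900 to 20770 TPM at day 6. In rectum the sums were 7703 to 9785 and 17470 to 22310 TPM. Of the 10 markers, 3 were called higher and 1 lower in mid-colon, where 14.9% of all genes were called. In rectum 8 were called higher and 1 lower, with 48.7% of all genes called. Spink4 rose there by 1.85, Tff3 by 1.33 and Muc2 by 1.18 on the log2 scale. The lower marker was Atoh1, a transcription factor of the secretory lineage, in both sections, with -0.74 (adjusted p = 0.0458) in mid-colon and -0.67 (adjusted p = 0.0104) in rectum. At day 9 none was called higher and 5 in mid-colon and 6 in rectum were lower, with sums of 6359 to 9825 and 4710 to 6410 TPM, while Reg4 was not called in either section. Of all genes, 43.4% in mid-colon and 53.5% in rectum were called at day 9. The summed level of 6 enteroendocrine markers, another cell type that could hold Reg4, was 337.2 to 453.0 TPM in mid-colon at day 0 and 876.7 to 1385 TPM at day 6. The part of these cells in the Reg4 level was not tested.

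**Figure D2:**
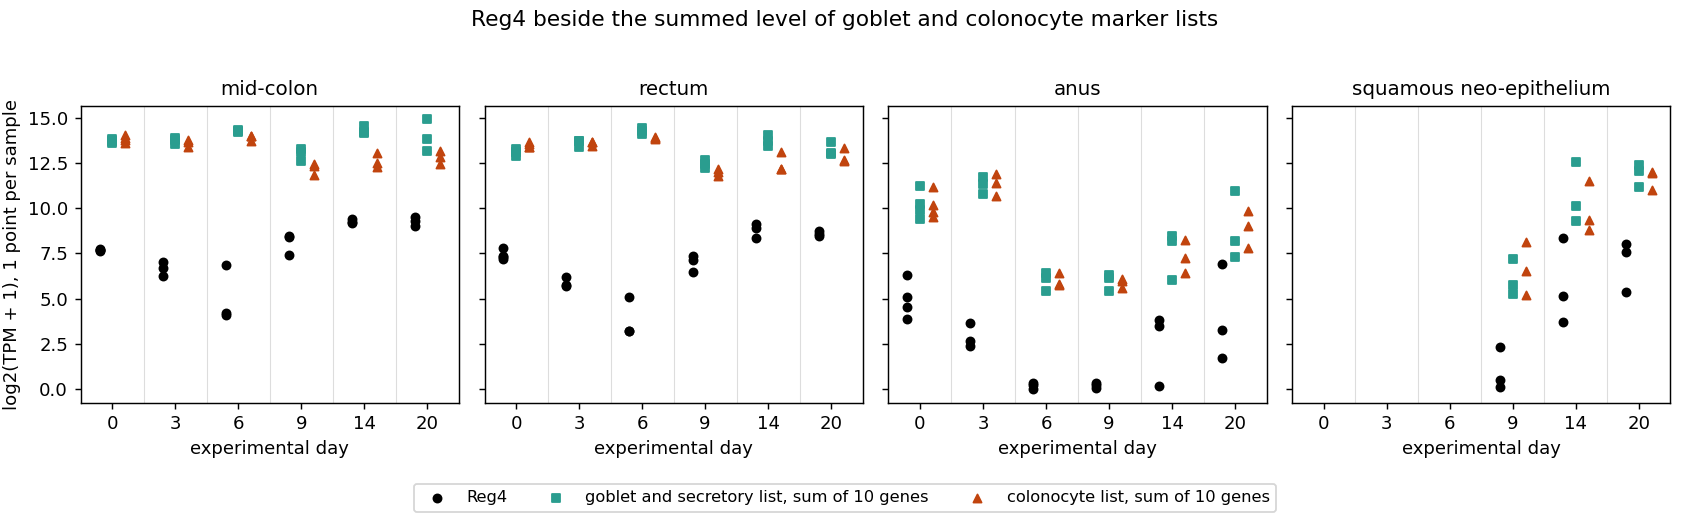
Reg4 (black circles) and the summed TPM of 10 goblet and secretory markers (green squares) and 10 colonocyte markers (orange triangles), as log2(TPM + 1) per sample against experimental day, 1 panel per section. In mid-colon and rectum Reg4 drops by day 6 while both sums stay high, and in anus and neo-epithelium Reg4 and both sums are low together at day 9.

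In the anus, which is mostly squamous tissue, Reg4 was lower than in rectum before injury and almost absent at days 6 and 9. It was 22.3, 33.1, 13.9 and 78.7 TPM at day 0, and 4.23, 5.42 and 11.8 TPM at day 3. By day 6 it was almost gone, at 0, 0.166 and 0.253 TPM, and at day 9 it was 0.0575, 0.15 and 0.244 TPM. The day 6 and day 9 differences were -4.78 (SE 0.49, adjusted p = 0.000682) and -4.76 (SE 0.49, adjusted p = 0.000825). Day 3 was not called (-2.05, SE 0.55, adjusted p = 0.588), although its samples lay below all controls. In the same samples the goblet sum was 674.1 to 2393 TPM at day 0, 1768 to 3377 TPM at day 3, 42.74 to 84.23 TPM at day 6 and 42.71 to 78.04 TPM at day 9, and 9 of 9 colonocyte markers tested were lower at day 6. Of all genes, 15.0% were called in anus at day 6. The colonocyte sum was 731.3 to 2313 TPM at day 0 and 1609 to 3855 TPM at day 3, so at day 3 neither sum went the way of Reg4. Their part in the Reg4 difference was not tested. Later values were scattered: 13.1, 10.3 and 0.12 TPM at day 14, and 120, 2.26 and 8.67 TPM at day 20, when mouse 17 was above all controls and neither day was called.

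Reg3b and Reg3g, the bactericidal Reg lectins, were scarce throughout, and their highest levels were in mid-colon and rectum from day 9 on. Reg3b was listed at 0 in 3 of 4 mid-colon controls and in all 4 rectal controls, and in every mid-colon and rectal sample of day 3. At day 9 the mid-colon held 4.52, 24.6 and 5.77 TPM and the rectum 1.58, 12.7 and 1.51 TPM, and in both sections mouse 12 was the high one. Reg3b was called higher at day 9 in mid-colon (log2 difference 3.27, SE 0.44, adjusted p = 0.000253) and in rectum (adjusted p = 0.00843). At day 6 too few samples had 1 TPM for a test in either section. With no filter on low genes limma called it higher there in rectum (0.85, adjusted p = 0.0128) but not in mid-colon (0.64, adjusted p = 0.0843). At day 14 it was 0.051, 1.31 and 1.41 TPM in mid-colon and 0.0803, 5.18 and 8.07 TPM in rectum, with mouse 14 lowest in both. At day 20 mouse 18 had 8.67 TPM in rectum, and the other mid-colon and rectal samples had at most 0.13 TPM.

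Reg3g was also low before injury. In mid-colon it was 0, 0.146, 0.768 and 0.0799 TPM at day 0 and 1.06, 7.08 and 1.41 TPM at day 9 (log2 difference 1.49, SE 0.42, adjusted p = 0.016), again highest in mouse 12. That call was lost when no filter on low genes was used. In rectum it was 0.207, 0, 0 and 0.112 TPM at day 0 and 1.24, 1.61 and 1.37 TPM at day 6 (1.16, SE 0.15, adjusted p = 0.000805), a call lost in the fit of all rectal days together. The highest rectal level was 3.71 TPM at day 9 and 6.59 TPM at day 14, and mouse 18 had 15.1 TPM at day 20, but too few samples had 1 TPM for a test on these days. With no filter limma called rectal Reg3g higher at day 9 (1.57, adjusted p = 0.0101). It was not called at day 14 or day 20 (adjusted p = 0.0511 and 0.329). Both genes were listed at 0 in the anus from day 6 on and in neo-epithelium at day 9. Over the 38 mid-colon and rectal samples the log2 levels of Reg3b and Reg3g had a Pearson r of 0.81, a description across samples that share mice and days. The other Reg genes of the cluster hardly registered, since Reg2 was listed at 0 in every sample and the group means of Reg1, Reg3a and Reg3d did not exceed 0.206 TPM.

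Retnlb, the goblet cell RELM, was near 0 before injury and rose from day 6. Mid-colon controls had 0, 2.09, 0.227 and 0.0952 TPM and rectal controls 0.494, 0.207, 0.175 and 0.399 TPM. At day 6 the levels were 10.0, 12.9 and 40.9 TPM in mid-colon and 13.0, 16.5 and 26.6 TPM in rectum, all above all controls. At day 9 they were 21.1, 48.8 and 44.5 TPM and 8.33, 17.9 and 12.8 TPM. The calls at these days were 3.70 (SE 0.50, adjusted p = 0.00243) and 4.69 (SE 0.41, adjusted p = 2.68e-05) on the log2 scale in mid-colon. They were 3.85 (SE 0.23, adjusted p = 3.1e-05) and 3.36 (SE 0.24, adjusted p = 1.08e-05) in rectum.

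After day 9 the mice of 1 day differed widely in Retnlb. At day 14 the mid-colon held 1.30, 52.5 and 372 TPM in mice 14, 15 and 16, and the rectum of the same mice held 12.6, 92.3 and 248 TPM. At day 20 mice 17, 18 and 19 had 0.377, 20.9 and 0 TPM in mid-colon and 5.37, 75.6 and 0.224 TPM in rectum. The order of the mice was the same in both sections on both days. Rectum was called at day 14 (5.70, SE 0.83, adjusted p = 0.00996), while mid-colon was not (4.65, SE 1.37, adjusted p = 0.0961). Mid-colon was called without mouse 14 (6.63) and in the fit of all its days together. On 4 of the 5 injury days the mouse with the highest Retnlb was the same in mid-colon and rectum, and on 4 of 5 so was the lowest. For Reg4 these numbers were 1 and 2, for Reg3g 1 and 3, and for Retnla and Ang4 3 and 2 each. Reg3b and Pla2g2a had ties at 0 at day 3 and are left out. The summed level of 8 neutrophil markers ran alongside at day 14, at 961.47, 2294.58 and 5203.17 TPM in the rectum of mice 14, 15 and 16 and 489.97, 895.0 and 943.89 TPM in their mid-colon. At day 20 it was 780.93, 1365.06 and 517.08 TPM in the rectum of mice 17, 18 and 19 and 359.39, 619.08 and 338.21 TPM in their mid-colon. Uninjured rectum already had such a sum, given with Retnlg below, and the rectum of mouse 19 lay under that range. The neutrophil marker sum therefore describes the listed genes and not the number of neutrophils. Mitochondrial genes took 25.566%, 18.18% and 17.064% of TPM in the mid-colon and 18.502%, 11.635% and 13.462% in the rectum of mice 14, 15 and 16. At day 20 mice 17, 18 and 19 had 21.545%, 9.283% and 28.681% in mid-colon and 13.67%, 17.365% and 20.703% in rectum. Whether either had a part in the Retnlb spread was not tested.

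**Figure D3:**
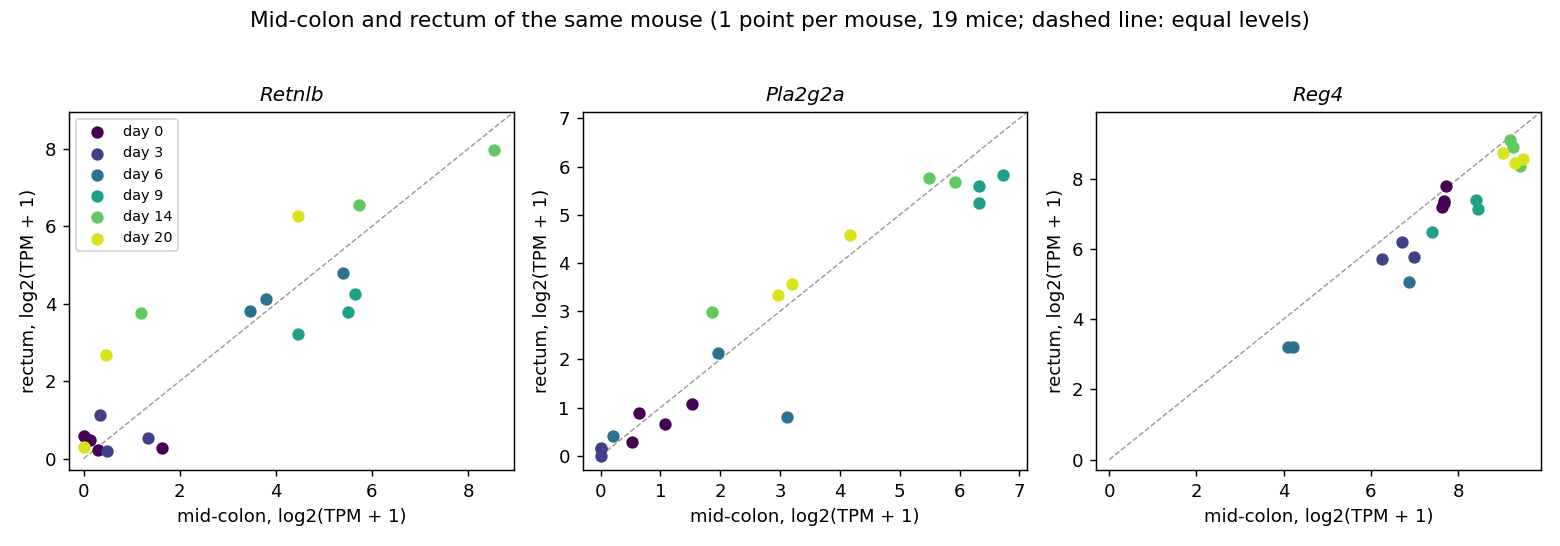
Log2(TPM + 1) in rectum (y axis) against mid-colon (x axis) of the same mouse for Retnlb, Pla2g2a and Reg4, 1 point per mouse (19 mice), coloured by day, with a dashed line of equal levels. The day 14 and day 20 mice are spread along the line for Retnlb, and Pla2g2a points of day 9 are close together below it.

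In neo-epithelium Retnlb was 0.664, 0 and 0.121 TPM at day 9, 71.8, 12.6 and 43.7 TPM at day 14 and 4.32, 14.4 and 1.99 TPM at day 20. The anus stayed at or below 5.66 TPM, the day 3 level of mouse 7. Compared over days 9 to 20, neo-epithelium had more Retnlb than the anus of the same days (log2 difference 2.46, SE 0.55, adjusted p = 0.00116), and against rectum the difference was -1.61 (SE 0.74, adjusted p = 0.093), called lower without mouse 14 or without mouse 19.

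Retnla, the neighbour of Retnlb, was lower from day 9 on in mid-colon, rectum and anus. It was present before injury, highest in the anus at 47.7, 65.6, 124 and 112 TPM, then in rectum at 34.1, 28.8, 28.9 and 19.9 TPM, and in mid-colon at 15.8, 13.6, 18.8 and 19.4 TPM. The anal samples did not overlap with the rectal ones (log2 difference 1.53, SE 0.30, adjusted p = 0.00145). Rectum minus mid-colon was 0.68 (SE 0.18, adjusted p = 0.0765, called without mouse 4), where the median over all genes was 0.21. With TMM scaling the Retnla difference was 0.43 (adjusted p = 0.326). Day 3 gave 6.35, 4.99 and 20.4 TPM in mid-colon and 14.4, 29.7 and 39.8 TPM in rectum. Day 6 gave 20.1, 22.6 and 26.1 TPM and 30.2, 11.2 and 29.2 TPM. Neither day was called in either section, although every mid-colon sample of day 6 was above the controls (0.43, adjusted p = 0.113, called without mouse 4). At day 9 it dropped to 4.08, 1.84 and 2.39 TPM in mid-colon and 5.98, 3.22 and 6.60 TPM in rectum, below every control.

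The low level of Retnla lasted. Mid-colon had 3.37, 0.367 and 0.542 TPM at day 14 and 0.698, 0 and 3.29 TPM at day 20. Rectum had 2.10, 0 and 0.243 TPM and then 0.155, 0.934 and 6.39 TPM. The log2 differences from day 0 at days 9, 14 and 20 were -2.28, -3.08 and -3.19 in mid-colon (adjusted p = 5.94e-05, 0.00653 and 0.00868) and -2.23, -4.18 and -3.48 in rectum (adjusted p = 0.000108, 0.0029 and 0.0187). In the anus Retnla was already lower at day 6, with 15.2, 6.53 and 27.2 TPM (-2.45, SE 0.47, adjusted p = 0.0109) and 3.33, 5.80 and 5.00 TPM at day 9 (-3.88, SE 0.34, adjusted p = 0.000364). The anus then held 30.2, 16.4 and 7.27 TPM at day 14 and 19.1, 18.9 and 10.9 TPM at day 20, still below all controls (-2.32 and -2.29, adjusted p = 0.0354 and 0.031). The last 2 calls were each lost in 5 of 7 fits without 1 mouse (without mouse 2, 3, 4, 15 or 16 at day 14, and without mouse 2, 3, 4, 18 or 19 at day 20), the rectal day 20 call without mouse 1, 2, 3 or 18, and the mid-colon day 20 call without mouse 17.

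Markers of other cells that could hold Retnla were summed beside it. In rectum the summed level of 7 alternatively activated macrophage markers was 13.31 to 20.56 TPM at day 0 and 175.8 to 322.5 TPM at day 9, with 3 of 5 tested called higher and 1 lower, and Arg1 and Chil3 carried most of it. The sum at day 9 therefore describes mainly Arg1 and Chil3, and not the number of these macrophages. Of all genes tested in rectum at day 9, 53.5% were called. In anus Arg1, which squamous tissue also expresses, was 797 TPM on average at day 0 and 820 TPM at day 9. The sum of 7 adipocyte markers in anus was 35.59, 305.98, 1524.41 and 362.57 TPM in the 4 controls and 122.3 to 219.0 TPM at day 9. In rectum it was 7.426 to 10.33 and 14.22 to 51.06 TPM, with Adipoq, Plin1 and Lep listed at 0 in all of these samples. Eosinophil markers summed to 1.867 to 3.006 TPM in rectum at day 0 and 3.43 to 6.588 TPM at day 9, with Epx listed at 0 in both. Their part in the Retnla level was not tested.

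**Figure D4:**
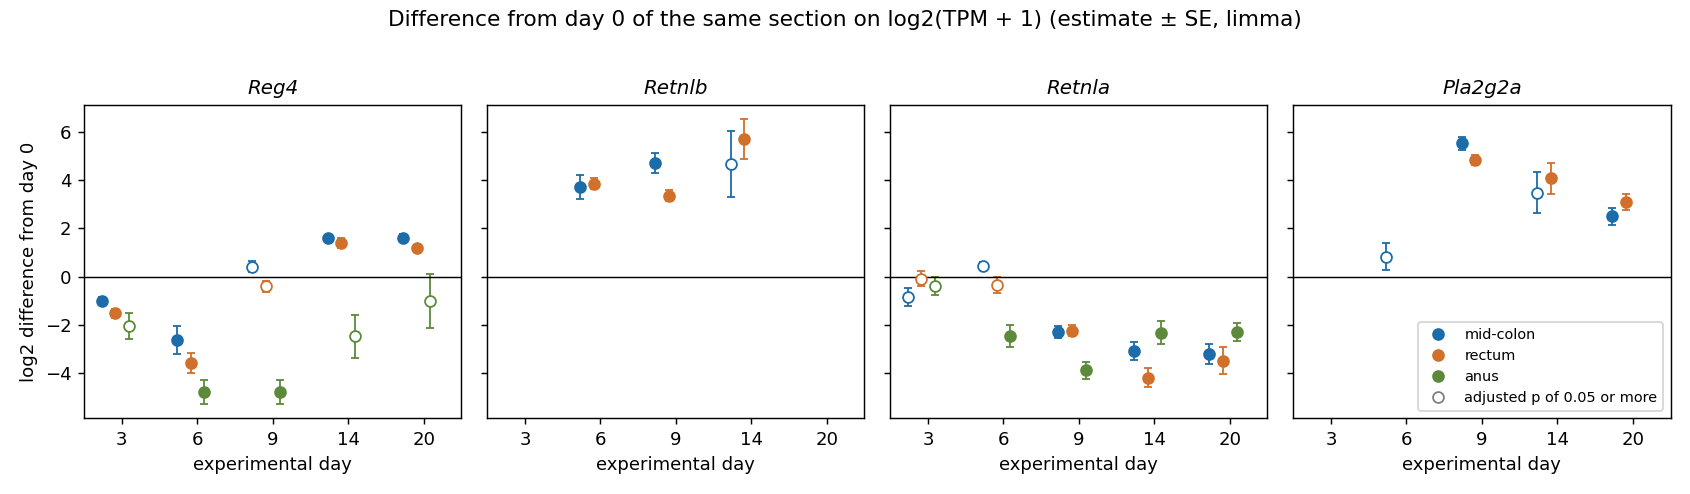
Difference from day 0 of the same section on log2(TPM + 1), as the limma estimate with its SE, for 4 of the genes on each later day where the gene was tested. Filled points have an adjusted p under 0.05. Reg4 passes from below 0 to above it in mid-colon and rectum, whereas Retnla stays below 0 from day 9 in all 3 sections.

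Ang4 was low and variable. Mid-colon controls had 0.281, 2.86, 0.985 and 1.47 TPM and rectal controls 3.22, 1.00, 0.338 and 0.385 TPM. Its highest group was mid-colon at day 6, with 7.26, 1.90 and 10.5 TPM (log2 difference 1.55, SE 0.48, adjusted p = 0.0583). It was called there without mouse 4 or mouse 9, and with TMM scaling (1.83). At day 9 mid-colon had 1.98, 4.62 and 5.48 TPM, overlapping with the controls, and was called (1.10, SE 0.38, adjusted p = 0.0359), a call lost in 5 of 7 fits without 1 mouse (mouse 1, 3, 4, 12 or 13) and with TMM scaling (0.93). In rectum it was 1.66, 1.86 and 8.41 TPM at day 6 and 0.545, 1.65 and 1.42 TPM at day 9, not called on any day tested except at day 6 without mouse 1. The TPM of Ang4 could include reads of its paralogue Ang5, since 5 of 635 windows of 75 bases, the read length, of the Ang4 transcript were shared with it (0.79%), but Ang5 itself had a group mean of at most 0.0230 TPM. Of 8 Paneth cell markers, 5 were listed at 0 in all mid-colon and rectal controls, the alpha-defensins Defa17, Defa21, Defa24 and Defa30 and Ang5.

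Pla2g2a was near 0 until day 6 and abundant at day 9. In mid-colon it was 1.12, 1.87, 0.555 and 0.439 TPM at day 0, listed at 0 in all 3 mice at day 3, and 2.89, 0.161 and 7.67 TPM at day 6, where it was called without mouse 9 but not with all mice. At day 9 it stood at 105, 79.5 and 79.5 TPM. In rectum it went from 0.569, 1.11, 0.856 and 0.217 TPM at day 0 to 56.0, 36.8 and 47.6 TPM at day 9. Both groups were far from their controls, with log2 differences of 5.52 (SE 0.26, adjusted p = 3.01e-06) and 4.83 (SE 0.22, adjusted p = 1.35e-06).

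The level of Pla2g2a then declined but stayed up. At day 14 it was 2.63, 43.7 and 59.6 TPM in mid-colon and 6.89, 53.1 and 50.0 TPM in rectum, and mouse 14 was the low animal in both sections, as it was for Retnlb and Reg3b. At day 20 it was 6.78, 17.0 and 8.19 TPM and 9.14, 22.9 and 10.8 TPM, with mouse 18 highest in both. The rectum was called at days 14 and 20 (4.08, SE 0.64, adjusted p = 0.012, and 3.10, SE 0.32, adjusted p = 0.00723) and mid-colon at day 20 (2.50, SE 0.34, adjusted p = 0.0107). Mid-colon at day 14 had 3.48 (SE 0.84, adjusted p = 0.0516) with all mice. It was called without mouse 14 (4.76), with TMM scaling (3.56), with a pseudocount of 0.1 (4.33) and in the fit of all its days together. The anus did not exceed 2.20 TPM in any sample. Neo-epithelium had 1.43, 0 and 0.932 TPM at day 9, 13.8, 6.63 and 8.62 TPM at day 14 and 7.72, 2.69 and 4.76 TPM at day 20. In neo-epithelium mouse 14 was the highest animal of day 14, as it was there for Retnlb.

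The signal was assigned mainly to transcripts that the annotation does not type as protein coding. At day 9, the transcript typed as a polymorphic pseudogene took 71.1% of the Pla2g2a TPM in mid-colon and 67.8% in rectum, and a retained-intron transcript took 25.3% and 25.7%. The protein-coding transcript took 0.0% in both. At day 14 the latter took 24.6% in mid-colon, as a mean of 8.70 TPM with an SD of 15.1 TPM over 3 mice, and 0.0% in rectum. How TPM is split among overlapping transcripts of 1 gene is an estimate of the quantifier, and the gene values above sum over that split.

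**Figure D5:**
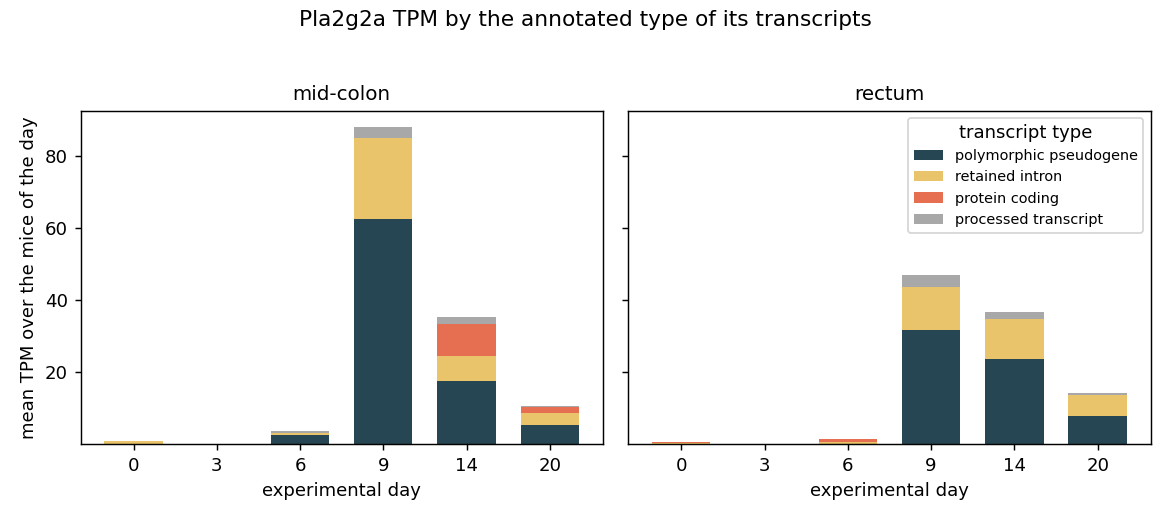
Mean Pla2g2a TPM over the mice of each day in mid-colon and rectum, stacked by the annotated type of the transcript (bars start at 0, no error shown). The polymorphic pseudogene type makes up 71.1% of the bar at day 9 in mid-colon and 67.8% in rectum.

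The calls are read against the share of all genes called. At day 9 limma called 43.4% of all genes tested in mid-colon and 53.5% in rectum. Of the 7 genes, 5 were called higher and 1 lower of 7 tested in mid-colon, and 3 higher and 1 lower of 6 in rectum. A gene that was absent at day 0 entered the test only through its level at the later day, so these counts describe the genes and support nothing beyond that. At day 6 the shares over all genes were 14.9% in mid-colon and 48.7% in rectum, with 1 higher and 1 lower of 5 members, and 2 higher and 1 lower of 5. At day 3 they were 0.375% and 6.62%, and Reg4 alone of 3 tested was called, lower in both sections.

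Fewer genes were called on the later days. At day 14 the background was 4.36% in mid-colon and 15.8% in rectum, with 1 higher and 1 lower of 5 members, and 3 higher and 1 lower of 4. At day 20 it was 1.56% and 7.68%, with 2 higher and 1 lower of 4 in each section: Reg4 and Pla2g2a higher, Retnla lower. In the anus the background was 0.0440%, 15.0%, 5.09%, 4.27% and 1.46% at days 3, 6, 9, 14 and 20. Only Reg4 and Retnla could be tested there, and 0, 2, 2, 1 and 1 of them were called, each time lower. The TPM scale moved between days as well: the median log2 difference over all genes was -0.24 in mid-colon and -0.27 in rectum at day 6, and 0.09 and 0.13 at day 9. With TPM divided by TMM factors (a trimmed mean of the log ratios between libraries), these medians were -0.03, -0.06, -0.13 and -0.15, and all called members kept their direction.

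Several members were lower in mid-colon at day 20 than at day 9. The day 9 samples are the same in which these genes were called higher than at day 0. Reg3b had 3 mid-colon samples at 1 TPM or more at day 9 and 0 at day 20, so it entered this test only through day 9. In mid-colon, where 20.6% of all genes were called, Reg3b (-3.24, adjusted p = 0.00389), Retnlb (-3.57, adjusted p = 0.037), Ang4 (-1.23, adjusted p = 0.0411) and Pla2g2a (-3.02, adjusted p = 0.00142) were lower at day 20, and Reg4 was higher (1.19, adjusted p = 0.0249). The calls of Retnlb, Ang4 and Reg4 were lost without 1 mouse in 5, 4 and 3 of 6 fits. These were the fits without mouse 11, 12, 13, 17 or 19 for Retnlb, 12, 13, 18 or 19 for Ang4, and 12, 17 or 18 for Reg4. In rectum, with 20.8% of all genes called, Reg4 was higher (1.57, adjusted p = 0.00664) and Pla2g2a lower (-1.73, adjusted p = 0.0132, not without mouse 13). Retnla was called lower in both sections without mouse 19, but not with all mice. With TMM scaling the mid-colon calls of Retnlb (-3.46) and Ang4 (-1.10) were lost.

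In neo-epithelium 4 of 4 members tested were higher at day 20 than at day 9, where 26.2% of all genes were called. Retnlb and Retnla had 0 samples at 1 TPM or more at day 9 and 3 at day 20, and Reg4 and Pla2g2a had 1 and 3. Retnlb and Retnla thus entered the test only through day 20, so the count describes the genes and supports nothing beyond that. Reg4 was 3.93, 0.0737 and 0.40 TPM at day 9. It was 322, 12.2 and 34.5 TPM at day 14, and 192, 39.8 and 261 TPM were found at day 20, when all 3 mice were above all of day 9 (6.03, SE 0.84, adjusted p = 0.00535). Retnlb (2.35, adjusted p = 0.0289), Retnla (1.57, adjusted p = 0.0161) and Pla2g2a (1.77, adjusted p = 0.0274) were higher too. The last 3 calls were lost without mouse 11, 12, 13 or 17 for Retnlb, without mouse 12 or 13 for Retnla, and without mouse 12, 13, 17 or 19 for Pla2g2a. Colonic markers rose in the same samples: the goblet sum was 36.72 to 145.3 TPM at day 9 and 2276 to 5357 TPM at day 20, and 8 of 10 goblet and 8 of 9 colonocyte markers tested were called higher. The squamous sum was 31510 to 33740 TPM at day 9 and 20170 to 24210 TPM at day 20. How much of the difference lies in colonic cells within the section was not tested.

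Set against rectum over days 9 to 20, neo-epithelium had less of 5 of the 7 genes, where 42.0% of all genes were called: Reg4 (-3.56, adjusted p = 0.000385), Pla2g2a (-2.52, adjusted p = 0.000756), Reg3b (-1.63, adjusted p = 0.0115), Reg3g (-1.36, adjusted p = 0.0154) and Ang4 (-0.64, adjusted p = 0.011). For each of them the ranges overlapped. Reg3b and Ang4 had 0 neo-epithelium samples at 1 TPM or more, so they entered the test only through rectum. Their means were 0.1035 against 4.207 TPM and 0.1107 against 0.8361 TPM, and the count describes the genes only. All 10 goblet and all 10 colonocyte markers were lower as well. Within single days, day 14 alone and day 20 alone gave no member call. At day 9 alone Retnlb (-3.45) and Retnla (-2.32) were called lower, beside Reg4, Pla2g2a and Reg3b. Not every member could be tested on a single day. Too few samples had 1 TPM for Ang4 on any of these days and for Reg3b at days 14 and 20. The same held for Reg3g at days 9 and 20 and for Retnla at day 14. Set against anus, where 58.5% of all genes were called, neo-epithelium had more Reg4 (2.34, adjusted p = 0.0167), Retnlb and Pla2g2a (1.76, adjusted p = 0.000238), and less Retnla (-2.36, adjusted p = 4.88e-05). The Reg4 call was lost without mouse 19, and the Reg3g call against rectum without mouse 15. Retnlb had 0 anal samples at 1 TPM or more on these days and entered the test against anus only through neo-epithelium.

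Before injury, anus and rectum differed in 60.3% of all genes, among them Reg4, lower in anus (-2.45, SE 0.42, adjusted p = 0.000748), and Retnla, higher in anus. The other 5 did not have enough samples at 1 TPM for a test. Rectum and mid-colon differed in 1.79% of genes and in 0 of the 3 members tested by limma. At an unadjusted p under 0.05 the count was 1 (Retnla). Reg4 there was 0.27 lower in log2 terms in rectum (SE 0.13, adjusted p = 0.23).

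The responses of rectum and mid-colon were compared directly as a section by day interaction. limma called 0 members at day 6, 9 or 20, where 0%, 6.55% and 0.00756% of all genes were called. At an unadjusted p under 0.05 the counts were 0 of 6, 2 of 7 and 0 of 5. At day 9 the estimates were -1.34 (SE 0.53, adjusted p = 0.183) for Retnlb, -0.81 (SE 0.35, adjusted p = 0.234) for Reg4, -0.69 (SE 0.36, adjusted p = 0.332) for Pla2g2a and -1.12 (SE 0.77) for Reg3b. Without mouse 12 Reg3b and Reg4 were called, and without mouse 2 Retnlb. With the mouse as a block, which uses that both sections came from the same animal, Reg3b and Reg4 were called at day 9, both with the lower difference in rectum. Il22, the cytokine that induces Reg3 genes, had a higher response in rectum at day 9 (2.18, SE 0.33, adjusted p = 0.00143), with 0.36 TPM on average in mid-colon and 5.60 TPM in rectum. Whether it had a part in the levels of Reg3b or Reg3g was not tested.

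Genes of pathways known to induce some of the 7 genes were followed as lists. Of 15 genes of the IL-22, IL-17 and STAT3 pathway, 4 were higher and 2 lower of 8 tested in mid-colon at day 9, and 10 higher and 2 lower of 13 in rectum, with medians of 0.44 and 1.77 against 0.09 and 0.13 over all genes. The shares of all genes called were 43.4% in mid-colon and 53.5% in rectum. Socs3, a feedback target of STAT3, rose by 5.22 in mid-colon and 6.76 in rectum on the log2 scale (adjusted p = 3.01e-06 and 6.44e-07), from means of 1.64 and 1.38 TPM to 95.0 and 272 TPM. Il22ra1, the receptor chain of epithelium, fell in mid-colon (-1.14, adjusted p = 0.00232). Of 11 type 2 cytokine genes, 2 of 5 tested were higher in mid-colon and 5 higher and 1 lower of 6 in rectum at day 9, where 53.5% of all genes were called. With TMM scaling the rectal count was 3 higher and 1 lower. Il4ra, the shared receptor chain, rose by 2.37 and 3.84 and the alarmin Il33 by 1.98 and 3.46, whereas the cytokines Il4 and Il13 themselves had group means of at most 0.467 TPM and 0.0579 TPM.

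Relatives of the members were also followed. Retnlg, the third resistin-like gene of the cluster and known from neutrophils and bone marrow, had a mean of 0.17 TPM in mid-colon and 0.168 TPM in rectum at day 0, and of 79.4 TPM (SD 49.7) and 718 TPM (SD 91.1) at day 9. The sum of 8 neutrophil markers, Retnlg among them, ran alongside, from 605.4 to 736.6 TPM at day 0 to 12660 to 14630 TPM at day 9 in rectum. At day 0 that sum lay almost wholly in markers other than Retnlg. Retn, the resistin gene of fat, stayed under 1 TPM on average in mid-colon, rectum and neo-epithelium and was 18.5 TPM in anus at day 0. Among 10 other secreted phospholipases A2, 2 were called higher and 3 lower of 7 tested in mid-colon at day 9, where 43.4% of all genes were called. In rectum 2 were higher and 4 lower of 9, with 53.5% of all genes called. Pla2g12a rose by 1.11 in mid-colon and 1.26 in rectum. Pla2g10, the most abundant, fell from 395 to 212 TPM (-0.91, adjusted p = 0.00295) and from 383 to 161 TPM (-1.25, adjusted p = 1.67e-05), and Pla2g3 fell by 2.46 and 2.76. Ang, the relative of Ang4, had group means of 14.7 to 29.6 TPM over mid-colon and rectum.

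Of 18 other mucosal defence genes, 13 of 15 tested were called higher and 0 lower in mid-colon at day 6, and 13 of 16 higher and 0 lower in rectum, on the day that Reg4 was lowest. Of all genes, 14.9% in mid-colon and 48.7% in rectum were called on that day. At day 9 there were 11 higher and 2 lower of 15, and 13 higher and 3 lower of 17, with 43.4% and 53.5% of all genes called. In rectum S100a8, S100a9 and Saa3 rose by 11.95, 11.06 and 10.68 and Lcn2, a siderophore-binding protein, by 7.46 on the log2 scale. S100a8, S100a9 and Lcn2 are also products of neutrophils. At day 20, 0 of 15 were called in mid-colon and 4 of 15, all higher, in rectum, with 1.56% and 7.68% of all genes called.

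Signal of the Reg genes from adhering pancreas, where some of them are abundant, was looked for with 11 acinar markers. In rectum, Sycn, which the colon also expresses, took nearly all of the summed level of 2486 to 3222 TPM at day 0 and 312.6 to 415.8 TPM at day 9. Cpa1, Pnlip, Try4, Cela3b and Ctrb1 were listed at 0 in all rectal samples of both days. Sycn was lower in rectum at day 9 (-2.99). In mid-colon at day 9 Cpa1, Try4 and Cela3b were listed at 0. In anus at day 3 only Cpa1, Cela2a and Amy2a5 were listed at 0 in all 3 samples.

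Among the members, levels over the 38 mid-colon and rectal samples were compared by Pearson r, given as a description. Retnlb and Pla2g2a (0.72), Reg3b and Retnlb (0.73) and Reg3b and Pla2g2a (0.76) ran together, while Retnla ran against Pla2g2a (-0.73), Reg4 (-0.68) and Retnlb (-0.55). Reg4 had an r of 0.06 with Retnlb and 0.50 with Pla2g2a. Among 8622 genes with a mean of at least 5 TPM, those most like Reg4 were the claudins Cldn2 (0.906) and Cldn15 (0.896) and the enzyme gene Cbs (0.887). For Retnlb they were Il18bp (0.914), Gm5431 (0.913) and Parp9 (0.893), for Retnla Fxyd4 (0.86), Gsn (0.845) and Vstm5 (0.837), and for Pla2g2a Apobec3 (0.919), Sec61b (0.91) and Ddah1 (0.901). The samples share mice, days and sections, so these points are not independent.

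By the order of group means over the 21 groups, Reg4 was highest in mid-colon at day 20 (mean 624.5 TPM) and day 14 (624.3 TPM), which overlapped, followed by rectum at day 14 (452.3 TPM). Retnlb led in mid-colon (142.0 TPM, SD 201) and rectum (117.7 TPM, SD 119.8) at day 14, which also overlapped. Retnla was led by the anus at days 0 (87.49 TPM) and 3 (65.70 TPM), and the day 3 anus did not overlap with the next group. Pla2g2a was highest in mid-colon at day 9 (87.98 TPM, SD 14.73), clear of the rectum at day 9 (46.83 TPM, SD 9.62). Summed over the 7 genes, mid-colon held 217.7 to 231.2 TPM at day 0, of which Reg4 was 90.5% to 92.3%. At day 6 it held 55.86 to 157.4 TPM with 15.1% to 73.4% from Reg4, and at day 20 535.9 to 757.7 TPM with 94.9% to 98.0% from Reg4.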

How the data were processed

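RNA from 66 sections of 19 mice was measured as stranded mRNA libraries read as single ends of 75 bp, per the labels' protocols. The authors deposited 1 table of TPM values per Ensembl transcript; per the submitters' processing notes kallisto, CASAVA and mm10 were used, and versions are not given in the sources used here. Of 126860 rows, 37344 had no values and 1318 repeated a transcript already listed and were dropped. The columns then summed to 1000000 TPM on average. Of the remaining 88198 transcripts, 1284 had no gene identifier and were left out. They held 0.563% to 2.833% of TPM per library. The other transcripts were summed to 30452 genes. TPM keeps no counts, so depth is unknown and no counting interval is given.

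Fits used limma 3.58.1 in R 4.3.3 on log2(TPM + 1) with a trend prior, after a check on simulated data. A gene was tested if the number of samples reaching 1 TPM was no less than the size of the smaller group (3 for neo-epithelium). Day comparisons used only the samples of both groups. Neo-epithelium was compared with its neighbours in 1 fit of days 9, 14 and 20 that had day as a term. Alternatives were a pseudocount of 0.1, no filter, TPM divided by TMM factors (trims of 30% and 5%), all days of a section in 1 fit, single days, the mouse as a block and leaving out each mouse. Sections carry the mouse number in the labels, so the block pairs samples of 1 animal. The mean correlation of their deviations from group means lay between 0.054 and 0.273. Likeness was Pearson r on log2(TPM + 1). Positions are from GENCODE M21 and sequences from RefSeq on GRCm38.p6. The members, lists and tests were chosen with earlier results of these data known. All 7 members are named. Of a list, up to 4 called genes with the largest differences and markers listed at 0 are named. Il4, Il13, Retn, Ang, Arg1, Chil3, Sycn, Atoh1 in rectum and the other Reg genes of the cluster were named after their values were seen. The single-cell samples of the study were not analysed here, and 1 marker of a list is not reported here.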

Additional observations from a re-analysis of the deposited data

Results flagged for a closer look

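In 5 of the 20 uninjured groups of 4 that were checked (1 gene in 1 section), 1 mouse stood apart from the other 3 by more than the 95% critical gap for 4 samples. Chance alone gives about 1 in 20 such groups for continuous values, a rate that does not hold where values lie at 0: in 4 of the 5 the other mice were all at 0, so that any value above 0 stands apart. Mouse 1 accounted for 3 of them, all in anus: Ang4 was 5.1373 TPM against at most 0.2413 TPM in the other 3 mice, Reg3g was 1.253 TPM and Retnlb 0.4667 TPM, with the other 3 listed at 0. The anal Pla2g2a of mouse 2 was 0.597 TPM with the other 3 listed at 0, and the mid-colon Reg3b of mouse 4 was 0.082 TPM, also with the other 3 listed at 0. The 4 genes flagged in anus had too few anal samples at 1 TPM to be tested between days there.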

How the results depend on the processing

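Of 454 values recomputed under settings other than leaving out a mouse, 399 kept their direction and side of the threshold, 37 lost the call, 10 gained it and 8 turned sign. The 8 were all uncalled: Ang4 in rectum at day 9 (-0.05 with TMM), Reg3g in rectum at day 20 against day 9 (-0.43 with pseudocount 0.1), Retnla in neo-epithelium against rectum (0.50 at day 20 only), and, for rectum minus mid-colon, Retnlb at day 6 (-0.18 with pseudocount 0.1, -0.06 with TMM), Reg3g at day 9 (-0.07 with TMM) and Retnla and Ang4 at day 20 (0.18 and -0.13 with pseudocount 0.1).

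Counts of called members that moved by over 1.5 times were these. Mid-colon day 3 had 1, and 0 with pseudocount 0.1, no filter or all days in 1 fit. Without the filter, mid-colon days 6 and 20 had 1 each, anus days 14 and 20 had 0, mid-colon day 20 against day 9 had 2 and neo-epithelium day 20 against day 9 had 2. Mid-colon day 20 against day 9 had 3 with pseudocount 0.1, TMM or all days in 1 fit, and mid-colon day 14 had 4 with all days in 1 fit. Neo-epithelium against rectum had 0 at day 14 only and 0 at day 20 only, and against anus 1, 2 and 2 at days 9, 14 and 20 only. Single calls ended without such a move of the count for Ang4 in mid-colon at day 9 (pseudocount 0.1, no filter, TMM, all days in 1 fit), Reg3g in mid-colon at day 9 and Retnla in rectum at day 20 (no filter), Reg3g in rectum at day 6 (all days in 1 fit), and Retnla (all days in 1 fit) and Pla2g2a (pseudocount 0.1) in neo-epithelium at day 20 against day 9. The cause was not tested, beyond more genes tested without the filter and fewer samples on single days. With the mouse as a replicate block, the day 9 section difference had 2 member calls instead of 0, and no other call changed.

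Without 1 mouse each, counts ran from 0 to 0 (mid-colon day 3), 1 to 4 (day 6), 5 to 6 (day 9), 2 to 6 (day 14) and 2 to 3 (day 20). They ran from 3 to 4, 4 to 5, 4 to 6 and 1 to 4 (rectum days 6, 9, 14, 20), 0 to 1 (anus days 14 and 20), 2 to 4, 1 to 3 and 1 to 4 (day 20 against day 9 in mid-colon, rectum, neo-epithelium), 0 to 1 (rectum against mid-colon), 4 to 6 and 4 to 5 (neo-epithelium against rectum and anus) and 0 to 2 (day 9 section difference). Uncalled values that changed sign were Ang4 in mid-colon at day 3 (-0.22 to 0.95) and day 20 (-0.39 to 0.14), in rectum at day 3 (-0.21 to 0.61), day 9 (-0.08 to 0.47), day 20 (-0.43 to 0.30) and day 20 against day 9 (-0.54 to 0.19), and between sections (-0.78 to 0.07 at day 0, -0.81 to 0.13 at day 6, -0.23 to 0.67 at day 20). The others were Retnla in rectum at day 3 (-0.39 to 0.32) and day 6 (-0.57 to 0.11) and between sections (-0.17 to 0.19 at day 9, -0.57 to 0.19 at day 20), Reg4 in anus at day 20 (-2.47 to 0.14), Reg3g (-1.16 to 0.66) and Retnlb (-2.27 to 0.72) in rectum at day 20 against day 9, and, between sections, Retnlb (-0.27 to 0.46), Reg3g (-0.33 to 0.68) and Pla2g2a (-0.85 to 0.40) at day 6 and Reg3g (-0.45 to 0.52) at day 9. With no read counts, the precision of values near 0 is unknown.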
